A study of Bos taurus with 6 samples.

Results

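Histones are the proteins around which DNA is wound, and most are made from replication-dependent genes whose mRNAs carry no poly(A) tail. The genes described here are of another kind: H1F0, which encodes a linker histone known to accumulate in cells that stop dividing or differentiate, and replacement histones that are made outside S phase from polyadenylated mRNAs and exchanged into existing chromatin. Linker histones bind the DNA that enters and leaves the nucleosome, while variants of H2A and H3 take the place of the core histone itself. H1F0 transcripts are also a classic readout of butyrate and other histone deacetylase inhibitors in cultured cells. The set was drawn up because H1F0 stood higher in treated cells, so that the H1F0 difference is given as a description with no test, and the other genes joined it as family members listed by symbol.

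Of the 9 listed symbols, 8 were found, in 9 rows among the 24616 gene rows of the deposited table. No row carried the symbol H2AFV. The symbol H2AFZ stood on 2 rows, of which one (ENSBTAG00000004428) is described as H2A histone family member Z and the other (ENSBTAG00000016975) as histone H2A.V, the product of H2AFV. The second is called the H2A.V row here. All 9 rows were among the 11615 that averaged 1 FPKM or more over the 6 libraries and were tested, and no member row was below 23.87 FPKM in any library. Genes of this kind have close relatives and, in mammals, many processed copies, and how reads were divided between near-identical sequences is not given in the sources used here, so that the levels of H2AFZ, H2A.V, H2AFJ, H3F3A and H3F3B are uncertain to that extent.

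The cells were cultured mammary epithelial cells of cattle (Bos taurus), in 3 control libraries and 3 libraries of cells with added acetate and BHBA (beta-hydroxybutyrate, a ketone body), called treated here. Their titles name the acetate as NaAc, the sodium salt, and name no control with matched sodium, so sodium and the substrates cannot be told apart. The treated columns of the table name acetate only and were matched to the samples whose titles name it. Poly(A) RNA was sequenced and values are FPKM, fragments scaled by gene length and by the fragments mapped in the library. Read depth cannot be recovered from them and is unknown. Breed, age, dose and duration are not given in the labels used here, and nothing says that the replicates were separate cultures, so a p-value reflects how these libraries vary, a spread that may be technical.

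The libraries differed in more than treatment. FPKM summed to 1134026 in control replicate 1, against 816087 and 847971 in the other controls and 787186 to 936152 in treated cells. Epithelial transcripts were abundant, with mean EPCAM levels of 309 FPKM in the controls and 300 FPKM after treatment. Of 8 epithelial markers 0 passed the test (limma; 1 at an unadjusted p under 0.05, where 11.0% of all genes were). The groups did not overlap for KRT5 (means 9104 and 6380 FPKM) and CDH1 (236 and 190), both lower in treated cells. Of all genes tested, 6.69% were separated in that direction. For CDH1 the gap was narrow, from 204.59 FPKM in control replicate 1 to 204.57 in treated replicate 1. KRT14 (15.9 and 22.1) was higher in treated cells without overlap, a separation seen in 13.0% of all genes tested. The milk protein gene CSN3 was present at means of 17.3 and 16.2 FPKM, while CSN2, CSN1S1 and PAEP were listed at 0 throughout. Myoepithelial markers were also present, with TAGLN at control and treated means of 2240 and 1528 FPKM, ACTA2 at 335 and 260 and CNN1 at 31.7 and 42.8. Their groups overlapped and 0 of these 3 passed (limma), while the other listed myoepithelial genes averaged under 1 FPKM. The leukocyte marker PTPRC and the endothelial marker PECAM1 had group means of at most 0.030 FPKM, but the endothelial list also held VWF at means of 3.09 and 4.77 FPKM and KDR at 1.31 and 0.57. Of the summed fibroblast list, control libraries held 494 to 544 FPKM and treated libraries 470 to 559, most of it VIM, and 0 of its 7 tested members passed the test (limma; 2 at an unadjusted p under 0.05, against the 11.0% of all genes). The groups did not overlap for the low fibroblast genes DCN (means 1.78 and 3.32 FPKM) and LUM (1.54 and 2.52) and for the leukocyte marker CD14 (4.34 and 7.09). All were higher in treated cells, a separation seen in 13.0% of all genes tested. Their part in the histone values was not tested.

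H1F0 (ENSBTAG00000038439) was present at 23.87, 31.30 and 26.20 FPKM in control replicates 1, 2 and 3. In treated replicates 1 to 3 it stood at 55.42, 54.09 and 58.02 FPKM. All 3 treated libraries lay above all 3 controls, as they did in 13.0% of all genes tested, and the treated values were within 1.07-fold of one another against 1.31-fold among the controls. The group means were 27.1 ± 3.80 and 55.8 ± 2.00 FPKM (SD, n = 3 per group). Differences here are taken on log2(FPKM + 0.5), a scale that shrinks those of weakly expressed genes, and for H1F0 it was 1.04 ± 0.13 (SE), or 2.05-fold. As these are bulk samples, a change in the number of cells with a transcript cannot be told apart from a change in its amount per cell.

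The H1F0 difference, for which the set was chosen, was also described under other settings. Since every treated library lay above every control, leaving a library out could not reverse its sign, so these values do not test it. With each library left out in turn the H1F0 difference ran from 0.95 (without control replicate 1) to 1.14 (without control replicate 2) on the log2 scale. Rescaling every library to the same summed FPKM gave 1.11, and the other scalings tried stayed between 0.95 and that value. H1F0 was lowest in control replicate 1, the library with the highest summed FPKM.

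**Figure D1:**
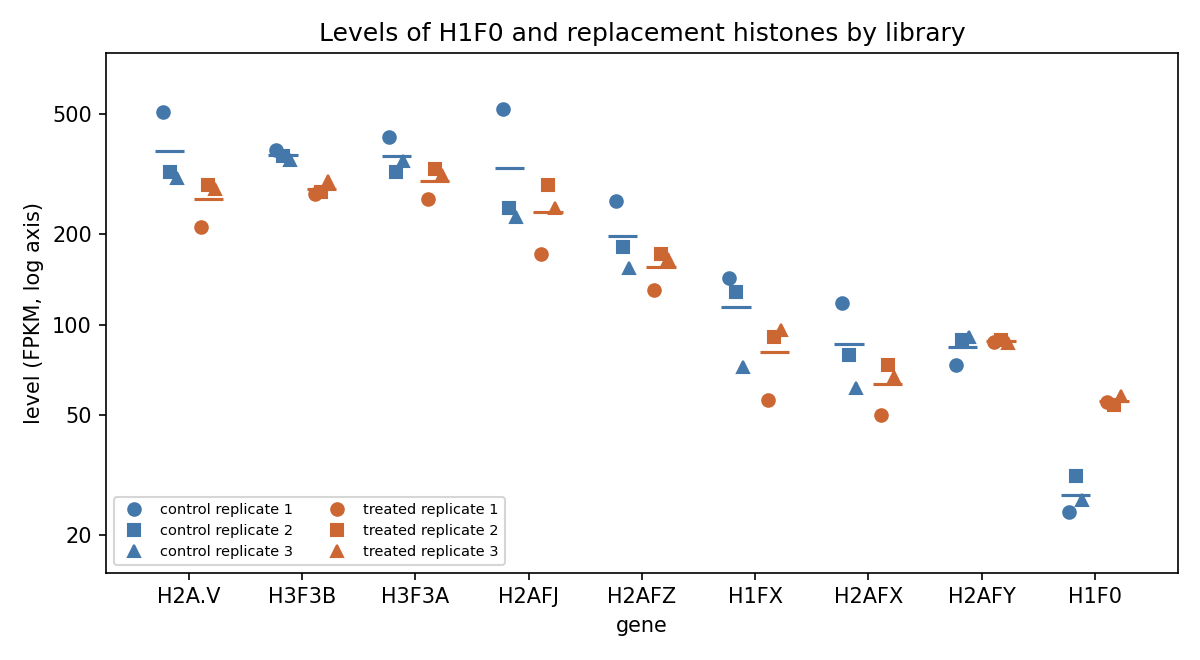
Levels (FPKM, log axis) of the 9 histone rows in each library, ordered by control mean, with 1 point per library and a short line at each group mean. The 3 treated libraries of H1F0 sit between 54.09 and 58.02 FPKM, above the controls, while in 7 other rows control replicate 1 is the highest point and treated replicate 1 the lowest.

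H1FX (ENSBTAG00000040116), the other replication-independent linker histone of somatic cells, varied more between libraries. It stood at 143.17, 128.30 and 72.40 FPKM in control replicates 1 to 3 and at 56.15, 90.78 and 95.67 FPKM in treated replicates 1 to 3. The groups overlapped, with control replicate 3 below the treated replicates 2 and 3. The log2 fold change was -0.48 ± 0.32 (95% interval -1.25 to 0.29; limma, Benjamini-Hochberg adjusted p = 0.728 over all genes tested). Leaving out single libraries moved it from -0.24 (without treated replicate 1) to -0.78 (without control replicate 3).

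Within the linker pair, H1F0 made up 14.3%, 19.6% and 26.6% of the summed FPKM of H1F0 and H1FX in control replicates 1, 2 and 3. Its share was 49.7%, 37.3% and 37.8% in treated replicates 1 to 3. The shares, which do not move with the scaling of a library, did not overlap, and they rest on the H1F0 values that chose the set. Replication-dependent linker genes were barely seen in these poly(A) libraries. HIST1H1C reached at most 1.19 FPKM and HIST1H1D at most 0.72 in any library, so that H1F0 and H1FX held nearly all linker histone signal under these symbols.

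The H2A.Z histones, which sit beside active promoters, are encoded by separate genes for closely related proteins. The H2A.V row held 510.16, 321.40 and 306.21 FPKM in control replicates 1 to 3 and 211.59, 290.90 and 283.33 FPKM in treated replicates 1 to 3. Every treated library lay below every control, as in 6.69% of all genes tested. Control replicate 1 was the highest library and treated replicate 1 the lowest. The log2 fold change was -0.51 ± 0.24 (95% interval -1.09 to 0.07, adjusted p = 0.536 by limma), and it was -0.27 ± 0.16 without control replicate 1.

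H2AFZ itself stood at 257.89, 181.72 and 153.90 FPKM in control replicates 1, 2 and 3. In treated replicates 1 to 3 it stood at 130.61, 171.35 and 165.34 FPKM. The groups overlapped, since control replicate 3 lay below treated replicates 2 and 3. Its log2 fold change of -0.32 ± 0.22 did not pass (adjusted p = 0.744, limma) and shrank to -0.11 without control replicate 1.

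The balance between these 2 genes was also compared. H2AFZ made up 33.6%, 36.1% and 33.4% of the FPKM summed over H2AFZ and H2A.V in control replicates 1, 2 and 3. It made up 38.2%, 37.1% and 36.9% in treated replicates 1 to 3. Each treated share was above each control share, and the means were 34.4 ± 1.51% and 37.4 ± 0.71% (SD, n = 3). The difference of 2.98 percentage points had p = 0.1 in a 2-sided exact permutation test, the smallest value that 3 libraries against 3 allow. It was 2.58 points without control replicate 1.

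H3.3, the H3 variant placed at transcribed genes and at repeats, is made as the same protein from H3F3A and H3F3B in mammals. H3F3B (ENSBTAG00000024909) stood at 381.61, 363.97 and 351.85 FPKM in control replicates 1 to 3, and at 272.79, 276.53 and 300.22 FPKM in treated replicates 1 to 3. The groups did not overlap, with treated libraries lower, as in 6.69% of all genes tested, and the spread within each was small. With a log2 fold change of -0.37 ± 0.11 (95% interval -0.64 to -0.10) and an unadjusted p = 0.0154, it did not pass over all genes tested (adjusted p = 0.280, limma). Leaving out single libraries kept its log2 fold change between -0.41 and -0.34.

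H3F3A (ENSBTAG00000024561) stood at 422.17, 321.37 and 350.05 FPKM in control replicates 1 to 3 and at 260.90, 328.92 and 313.53 FPKM in treated replicates 1 to 3. Its groups overlapped, with control replicate 2 below treated replicate 2, and its log2 fold change was -0.27 ± 0.16 (adjusted p = 0.663, limma), or -0.16 without control replicate 1 and -0.17 without treated replicate 1. H3F3A supplied 49.8 ± 2.82% of the FPKM of the H3.3 pair in control and 51.4 ± 2.74% in treated cells. The difference of 1.67 points had p = 0.5 (2-sided exact permutation test, n = 3 per group), with shares from 46.9% to 54.3% across the 6 libraries. Single libraries decided its size: it was 0.23 points without control replicate 2 and 0.22 without treated replicate 2, but 3.05 without control replicate 1 and 2.94 without treated replicate 1.

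**Figure D2:**
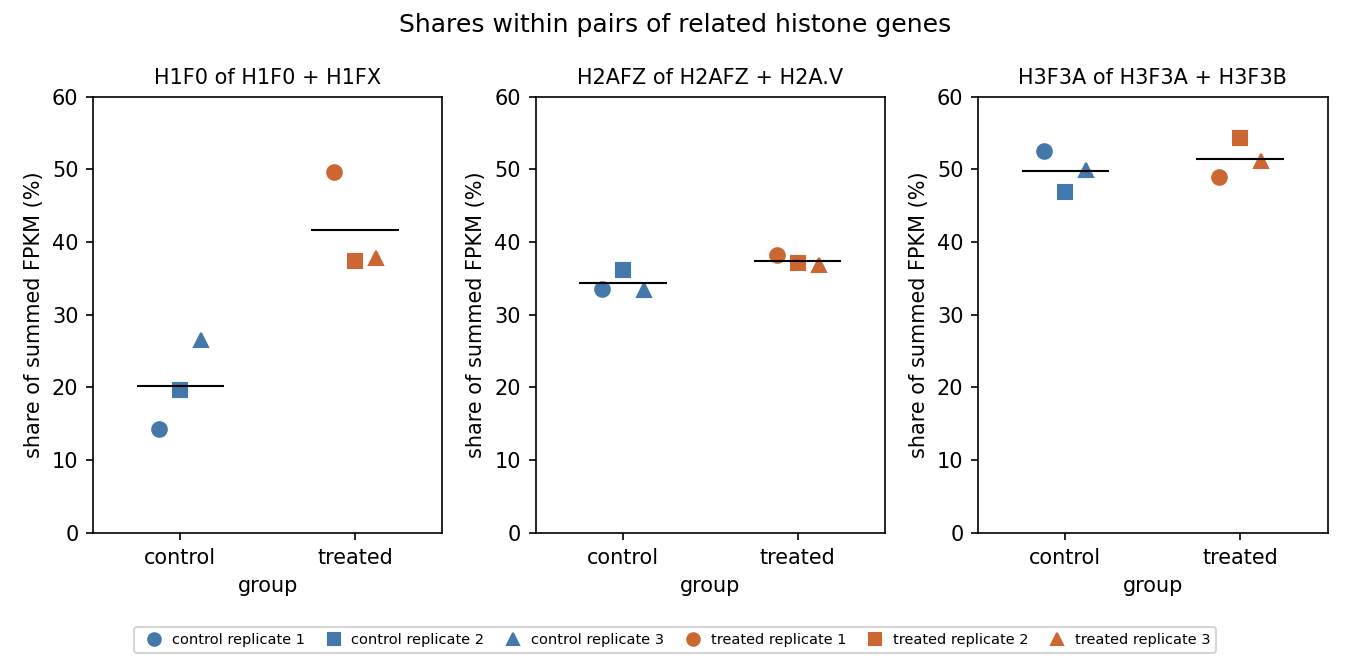
Share (%) of one gene in the summed FPKM of a related pair, with 1 point per library and a line at the group mean. H1F0 supplied 14.3% to 26.6% of its pair in control and 37.3% to 49.7% in treated libraries, H2AFZ shares were separated by less, and H3F3A shares overlapped.

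The remaining H2A variants ranged from the most to the least variable rows of the set. H2AFJ, which encodes an H2A variant known to build up in senescent human fibroblasts, ranged more than any other row, with 521.48, 244.01 and 227.60 FPKM in control replicates 1, 2 and 3. In treated replicates 1 to 3 it stood at 171.75, 292.08 and 244.76 FPKM. The groups overlapped and the control SD of 165 FPKM came largely from replicate 1. The log2 fold change of -0.41 ± 0.36 (adjusted p = 0.831, limma) was -0.03 without that library.

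H2AFX encodes the variant that is phosphorylated around DNA double-strand breaks, and its mRNA occurs in a polyadenylated and a tail-less form, of which these libraries select the first. It stood at 118.08, 79.50 and 61.43 FPKM in control replicates 1 to 3 and 50.09, 73.36 and 67.12 FPKM in treated replicates 1 to 3. The groups overlapped (log2 fold change -0.41 ± 0.27, adjusted p = 0.725 by limma), and without control replicate 1 the value was -0.16.

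H2AFY encodes macroH2A1, a large variant with an added macro domain that is associated with silenced chromatin. It had the narrowest range over the 6 libraries, at 73.68, 89.09 and 91.12 FPKM in control replicates 1 to 3 and 87.93, 89.07 and 86.99 FPKM in treated replicates 1 to 3. Control replicate 1 was its lowest library, the reverse of its relatives. The 95% interval of its log2 fold change, -0.23 to 0.36 around 0.06 (adjusted p = 0.932, limma), was among the narrowest of the set. The sign of this small value turned without control replicate 1 (-0.03) and with trimmed-mean factors (-0.02). Its relative H2AFY2 (macroH2A2) was present at 6.43 to 7.38 FPKM in the 6 libraries, with a log2 fold change of 0.08 ± 0.14, slightly negative with quantile normalization or trimmed-mean factors.

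**Figure D3:**
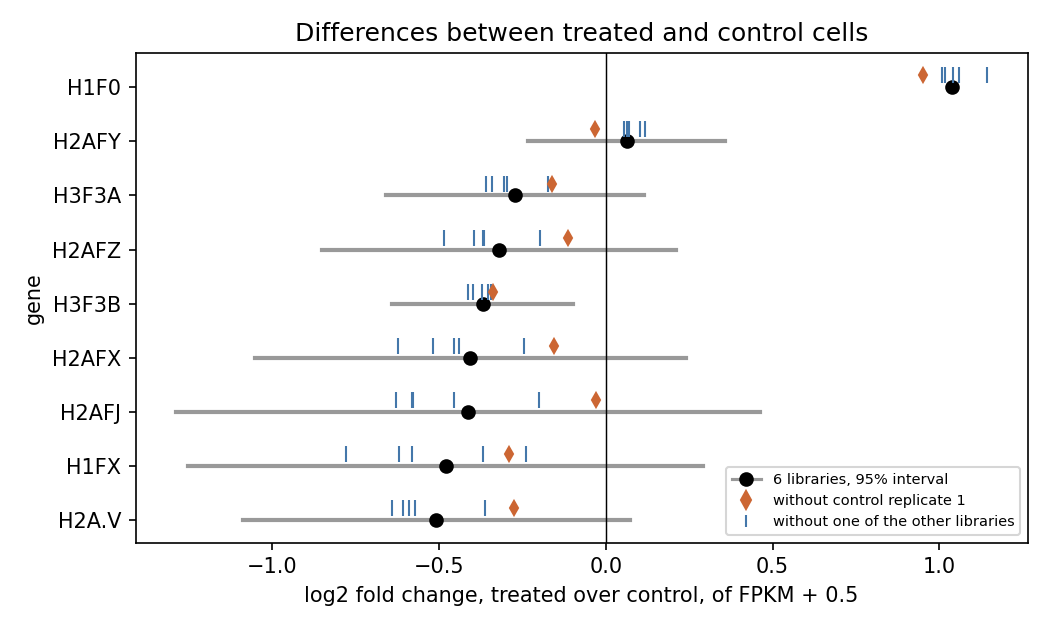
Log2 fold change of FPKM + 0.5, treated over control, for the 9 rows. Black points use all 6 libraries, grey bars are 95% intervals of the limma fit (drawn for all but H1F0, which was chosen on this difference), diamonds leave out control replicate 1 and ticks leave out 1 of the other libraries. H1F0 stays between 0.95 and 1.14. Within every row but H1FX, the diamond lies nearer to 0 than the ticks.

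Of the 8 rows other than H1F0, 7 had a negative log2 fold change, as did 4423 of all 11615 genes tested. The median over the 8 was -0.39 against 0.08 over all genes tested, and 0 of the 8 passed the adjusted threshold of 0.05. Over all 11615 genes, 40 rose (0.344%) and 15 fell (0.129%), so that a count of 0 among 8 says little. At an unadjusted p under 0.05 by limma 1 of the 8 was called, H3F3B. Of all genes, 11.0% were called in either direction and 3.62% on the lower side, so that 1 of 8 says little. Groups did not overlap in 2 of the 8, H2A.V and H3F3B, both lower in treated cells, where 6.69% of all genes were separated in that direction and 13.0% in the higher one. The 8 rows do not vary independently. In 7 of the 9 member rows control replicate 1 was the highest library and treated replicate 1 the lowest, the same libraries that had the highest and lowest summed FPKM, and this was so in 15.1% of all genes tested. Without control replicate 1 the median over the 8 was -0.16, with all 8 negative, where 5860 of all genes tested were lower and 5774 higher. Fractions of the total give a scale-free view: the 8 rows made up 0.198% to 0.214% of all FPKM in control libraries and 0.158% to 0.172% in treated libraries, with no overlap. This sum is weighted to the genes with the highest levels, and how often other sets separate in this way was not tested. Gene by gene, after rescaling to the same sum, 0 of the 8 passed. At an unadjusted p under 0.05 (limma) 1 of the 8 was called, against 1180 of all 11615 genes.

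FPKM is scaled by gene length, so levels were also set side by side between genes. The unknown division of reads between near-identical sequences and the unselected tail-less form of H2AFX limit such an order. On this scale H1F0 was the lowest of the 9 in control cells. Its highest control value, 31.30 FPKM, lay below the lowest control value of any other member, 61.43 for H2AFX. In treated cells it was again the lowest by mean and in replicates 2 and 3, while in treated replicate 1 its 55.42 FPKM exceeded the 50.09 of H2AFX and was close to the 56.15 of H1FX. At the top, H2A.V, H3F3B, H3F3A and H2AFJ had control means of 379, 366, 365 and 331 FPKM. Their ranges overlapped and no order among them held across libraries. H2AFZ came next, below H2A.V in all 6 libraries. H1FX, H2AFX and H2AFY overlapped with one another in control cells, while in treated cells H2AFY lay above H2AFX in every library and H1FX overlapped with both.

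Of 25 rows with symbols of the replication-dependent clusters (HIST1H to HIST4H), 9 were listed at 0 in all 6 libraries and 24 did not exceed 10 FPKM in any. The exception was HIST2H2AC (ENSBTAG00000046003), an H2A gene, at 301.65, 193.41 and 176.76 FPKM in control replicates 1 to 3 and at 103.59, 160.57 and 134.41 FPKM in treated replicates 1 to 3. Its groups did not overlap, with treated libraries lower, as in 6.69% of all genes tested. It shared the extremes of control and treated replicate 1 with most of the replacement genes (log2 fold change -0.73 ± 0.26, adjusted p = 0.346 by limma). A further row with the same symbol and description was listed at 0 throughout, and how reads of near-identical H2A genes were divided between them is not known. HIST1H2BD was low, with means of 2.45 and 1.17 FPKM, and its groups did not overlap either, again with treated libraries lower (log2 fold change -0.85 ± 0.31). HIST1H2BI was also low, with means of 2.75 and 3.29 FPKM and overlapping groups, and neither gene passed. Of the 4 tested rows of these clusters, 2 had an unadjusted p under 0.05 by limma, against 11.0% of all genes tested. H1FOO, the oocyte linker histone, was listed at 0 in all libraries and HILS1, a spermatid linker histone, reached at most 0.80 FPKM.

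Genes that place, exchange or chaperone histones were examined as lists. In those for H3.3 deposition, H2A.Z exchange, general chaperones, histone mRNA processing and H2AX partners, 0 members passed the threshold in either direction by limma, and 0 had an unadjusted p under 0.05. Over all genes tested 0.344% passed as higher, 0.129% as lower and 11.0% had an unadjusted p under 0.05. For the H3.3 chaperones, 3 of 7 tested were on the higher side and 4 on the lower (median log2 fold change -0.07). HIRA, which places H3.3 at genes, stood at 15.1 ± 3.96 and 18.3 ± 0.72 FPKM (SD; log2 fold change 0.30 ± 0.21), but at 0.07 without control replicate 1. DAXX, which works with ATRX at repeats, had a log2 fold change of -0.12 ± 0.12. For H2A.Z exchange, 6 of 11 were higher and 5 lower (median 0.03, or -0.04 without control replicate 1). RUVBL1, an ATPase of the exchange complexes, stood at 0.24 ± 0.18 and YEATS4 at -0.22 ± 0.16, and with single libraries left out they ran from 0.13 to 0.39 and from -0.34 to -0.10.

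General histone chaperones lay mostly on the lower side, 9 of 11 tested against 4423 of all 11615 genes, by small amounts (median -0.11). HJURP, the chaperone of the centromeric H3 variant, had the largest of these, with means of 20.4 ± 4.42 and 14.9 ± 1.89 FPKM in the control and treated groups (log2 fold change -0.42 ± 0.20, adjusted p = 0.538 by limma). NASP, a chaperone that holds H3 and H1, stood at -0.14 ± 0.11 and RBBP7 at -0.17 ± 0.12. NAP1L1, a chaperone of H2A and H2B that most cells make, reached at most 0.25 FPKM in any library, so a value near 0 in this table need not mean an absent transcript. Factors that process tail-less histone mRNA were split evenly (3 higher, 3 lower of 6, median 0.05), but 1 was higher and 5 lower without control replicate 1 (median -0.14). SLBP, which binds the stem-loop at the end of those mRNAs, had a log2 fold change of -0.23 ± 0.15, from group means of 53.2 ± 6.57 and 45.3 ± 5.17 FPKM. For the partners of H2AX at DNA breaks, 5 of 9 were higher and 4 lower (median 0.01, or -0.14 without control replicate 1), with TP53BP1 at 0.32 ± 0.22, or 0.10 without that library.

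Because H1F0 is known to mark cells that leave the cycle, genes of proliferation and of cycle exit were set beside it. By limma 0 passed in either list, and 4 of 19 and 3 of 13 had an unadjusted p under 0.05, against 11.0% of all genes tested. Of 19 proliferation genes, 16 were lower, as were 4423 of all 11615 genes tested. The list's median log2 fold change was -0.25 (-0.28 without control replicate 1). Its 4 genes at an unadjusted p under 0.05 by limma were all lower, a side on which 3.62% of all genes were called. In 9 of the 19 the treated libraries all lay below the controls, as they did in 6.69% of all genes tested. The 3 on the higher side were MCM6 and E2F1 (log2 fold change 0.14 for each) and MKI67 (0.03), with overlapping groups. Whether the genes of this list vary independently was not tested, so its counts are a description. PLK1, a mitotic kinase, stood at 36.0 ± 0.90 and 26.5 ± 2.02 FPKM (log2 fold change -0.44 ± 0.11, adjusted p = 0.198 by limma), and RRM2, which makes deoxynucleotides in S phase, at 42.7 ± 9.46 and 28.8 ± 3.92 FPKM. BIRC5 stood at -0.32 ± 0.10. Of 13 genes of cycle exit and histone deacetylase inhibitor readouts, 10 were higher (median 0.18), as were 7192 of all 11615 genes tested. Without control replicate 1, 9 of the list were higher and 4 lower, against 5774 and 5860 of all genes. CDKN1C, a CDK inhibitor of the CIP/KIP family, had the largest difference but was low, at 1.35, 1.88 and 0.58 FPKM in control replicates 1 to 3 and 3.67, 4.91 and 3.94 in treated ones (log2 fold change 1.47 ± 0.33, adjusted p = 0.154 by limma). CDKN2B, an inhibitor of CDK4 and CDK6, stood at 7.16 ± 2.80 and 14.2 ± 2.85 FPKM (0.99 ± 0.32, adjusted p = 0.304 by limma), while its relative CDKN2C was on the lower side (-0.46 ± 0.18). CDKN1A, the best known transcript induced by deacetylase inhibitors, had a log2 fold change of 0.18 ± 0.14 with overlapping groups.

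**Figure D4:**
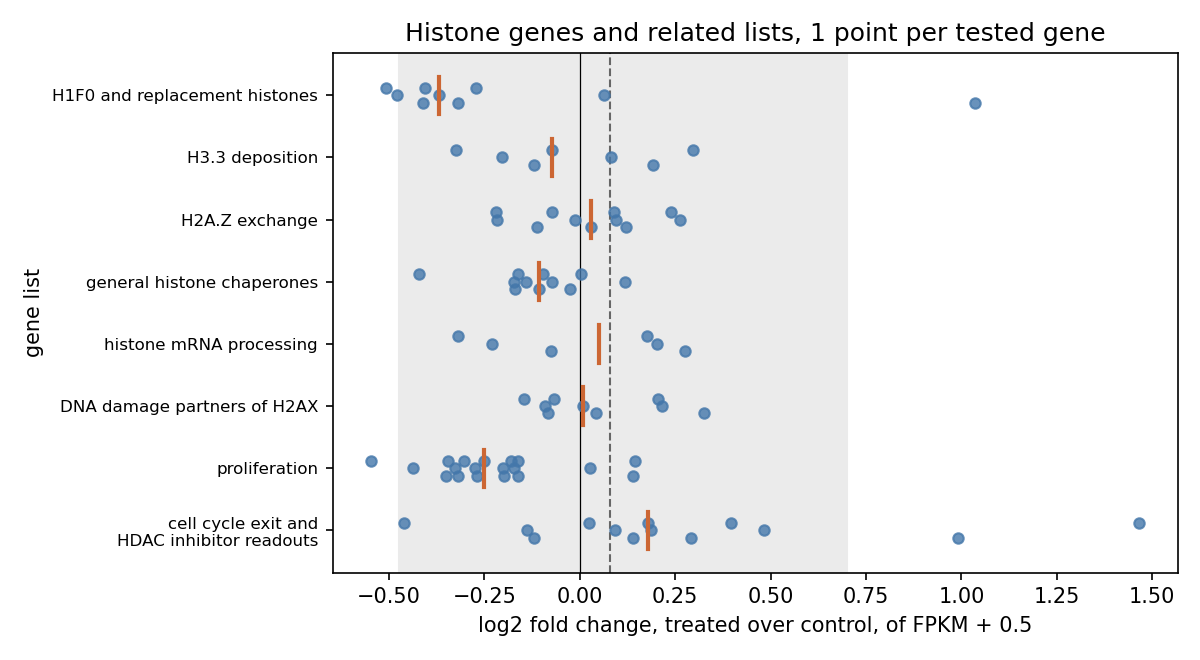
Log2 fold change of FPKM + 0.5, treated over control, for each tested gene of 8 lists, with an orange bar at the list's median. The dashed line is the median of all genes tested (0.08) and the grey band their 5th to 95th percentile, -0.47 to 0.70. CDKN1C at 1.47 and CDKN2B at 0.99 lie above the band and RRM2 at -0.55, H2A.V at -0.51 and H1FX at -0.48 below it, and H1F0, chosen for its difference, is drawn at 1.04.

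The genes whose levels followed H1F0 most closely were sought among 7846 named genes averaging 5 FPKM or more, by Pearson's r of log2(FPKM + 0.5) over the 6 libraries. GRAMD2 (r = 0.995), C19orf12 (0.994), LOXL3, a lysyl oxidase relative (0.993), ACSS2, which turns acetate into acetyl-CoA (0.992), and DHCR7, a late enzyme of cholesterol synthesis (0.991), came closest. ACSS2 stood at 30.90, 37.24 and 30.71 FPKM in control replicates 1 to 3 and at 67.31, 73.07 and 79.07 in treated replicates 1 to 3. LOXL3 had means of 51.2 and 92.8 FPKM and DHCR7 of 127 and 219. All 5 shared with H1F0 the low controls, with replicate 2 highest among them. The opposite pattern was closest in B3GLCT (r = -0.997), CITED1 and DHRS3 (both -0.986). With 6 libraries in 2 groups, r over 0.95 was reached by 133 genes, so these values mostly restate the group difference and are given as a description. Of the other members H2AFY had the only positive r with H1F0, 0.43, and H3F3B the most negative, -0.94.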

How the data were processed

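RNA of 6 libraries was measured, 3 control and 3 treated. Per the labels' protocols, poly(A) RNA was selected and sequenced paired-end. The authors deposited FPKM values rounded to 2 decimals. Per the submitters' processing notes the build was ARS-UCD1.2, and DESeq2 is named with no role. The sources used here do not name the aligner, counter or gene annotation, nor say whether strand was used. FPKM keeps no depth, so no count model was fitted and precision rests on replicate spread.

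Rows were found by symbol, and the H2A.V row by its description. Values were taken as log2(FPKM + 0.5), genes averaging 1 FPKM or more were tested, and groups were compared with limma 3.58.1 (R 4.3.3; mean-variance trend, 2-sided, no covariate, 4 residual degrees of freedom), and p-values adjusted by Benjamini and Hochberg's method across them (threshold 0.05). Shares within pairs were compared by exact permutation. The code was tested on simulated data. Tables used pandas 2.3.3 and numpy 2.4.6 under Python 3.11.15, and plots used matplotlib 3.10.9.

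The members, gene lists and tests were chosen with earlier results of these data known. Named genes were the members, of each list those past the threshold and up to 3 with the smallest p, the 5 genes most like H1F0 and the 3 least like it, and the 3 replication-dependent genes with the highest level. DAXX, CDKN1A, MKI67, MCM6, E2F1, NAP1L1, H1FOO, HILS1, HIST1H1C, HIST1H1D, EPCAM, VIM, PTPRC, PECAM1, KDR, CSN2, CSN1S1 and PAEP were named after their values were seen. Deviations from group means correlated at -0.73, -0.37 and -0.38 between same-numbered libraries, and at -0.53 to 0.67 between differently numbered ones. They were not rescaled for summed FPKM, so they cannot show whether the replicates were paired by design.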

Additional observations from a re-analysis of the deposited data

How the results depend on the processing

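The number of genes past the threshold, 55 (40 higher, 15 lower, so 72.7% higher), stayed within 1.5 times under 7 alternatives, among them quantile normalization, where 58.2% of calls were higher. It was 33 with a mean of at least 5 FPKM, 23 after rescaling to the same sum, 0 with the replicate number as a block (584 genes at an unadjusted p under 0.05, limma) and 2089 where the log2 of summed FPKM entered as a covariate, a choice made after seeing the data. Leaving out single libraries gave 0 to 205 calls, the most without control replicate 1, and the fits with 0 calls had 731 to 921 genes at an unadjusted p under 0.05. The block and the fits with a library left out have fewer residual degrees of freedom, and the filter tests fewer genes. The cause of the other changes was not tested. Of the 8 members other than H1F0, 0 passed under these alternatives (limma), except with the covariate, where 3 passed, all lower: H2A.V (adjusted p = 0.00373), H3F3B (0.00712) and H2AFJ (0.0475). Over all alternatives the adjusted p of each of the 3 ran up to at least 0.9994. Signs turned for H2AFY (-0.023 with trimmed-mean factors, and -0.034 to 0.12 with libraries left out), H2AFY2 (-0.026 with quantile normalization, -0.0049 with trimmed-mean factors), ZNF473 (-0.0013 with quantile normalization) and, with libraries left out, CSN3 (-0.20 to 0.038), COL1A1 (-0.084 to 0.35) and HIST1H2BI (-0.27 to 0.99). Both pair shares kept their direction wherever they were recomputed. With libraries left out, the H2AFZ share differed by 2.51 to 3.85 points and the H3F3A share by 0.22 to 3.05. Treated as pairs by replicate number, their exact permutation p-values were 0.25, the smallest that 3 pairs allow, and 0.75. Pseudocount, filter, variance and covariate alternatives do not apply to the shares. Depth is unknown, so no limit from counting error is given.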
